A study of Mus musculus with 6 samples.

Results

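The genes described here are 8 members of the machinery that moves chloride and potassium across the membrane when a cell swells or shrinks. They are the 5 LRRC8 genes Lrrc8a, Lrrc8b, Lrrc8c, Lrrc8d and Lrrc8e, which encode the subunits of the volume-regulated anion channel, and the 3 cation-chloride cotransporter genes Slc12a2, Slc12a4 and Slc12a7. They were chosen by gene symbol, and every array probe that carried the symbol, an older alias or a transcript accession of a member was taken. This gave 11 of the 41174 gene probes on the array, and the 8 genes were among 21341 genes kept for testing. The samples were MR 4-25, a mannitol-recovered line, and its parental line S49 Neo. S49 cells come from a T cell lymphoma of the mouse and are cultured in suspension, and mannitol is a sugar alcohol that cells hardly take up and that makes culture medium hyperosmotic. Both lines were kept in RPMI-1640 medium with heat-inactivated serum, glutamine and antibiotics, none of the samples was treated, and each line had 3 samples with 1 single-dye (Cy3) Agilent whole-genome array each. The labels give no allele or agent that sets the lines apart beyond these names, and because there was 1 recovered and 1 parental line, the recovery and every other way in which these lines differ cannot be told apart. Nothing in the labels states that the replicates were independent cultures, so the spread behind the p-values may be technical.

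The volume-regulated anion channel opens when a cell swells and lets chloride and small organic osmolytes leave, so that water follows and the cell shrinks back. LRRC8A is its obligatory subunit and assembles with at least one of LRRC8B to LRRC8E, and the choice of partner sets which osmolytes pass. Among the cotransporters, Slc12a2 encodes NKCC1, which brings sodium, potassium and chloride into the cell and serves the regain of volume after shrinkage in hyperosmotic medium. Slc12a4 and Slc12a7 encode KCC1 and KCC4, which carry potassium and chloride out and serve the loss of volume after swelling. In lymphocytes the same ion losses also accompany the shrinkage of apoptotic cells. The comparison asks whether the untreated mannitol-recovered line differs from its parent in the expression of these genes.

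On 5 arrays 69.9% to 76.2% of gene probes were well above background, the scanner software's flag for a spot that exceeds its background by a set margin. MR 4-25 3 was a dimmer array, on which 61.3% were, and its 75th percentile of signal was 521 intensity units against 844 to 988 on the others. MR 4-25 1, MR 4-25 2, Neo 1 and Neo 2 shared slide 1, and MR 4-25 3 and Neo 3 shared slide 2. All 10 T cell markers examined were well above background on all 6 arrays, with summed levels of 245 to 265 times the array's 75th percentile in MR 4-25 and 257 to 294 in Neo. Of them Cd247, a chain of the T cell receptor complex, passed the test as lower, with a log2 difference of −4.06 (limma adjusted p = 0.0272). The call was lost in a fit blocked on replicate number (adjusted p = 0.139) and with normexp background correction (−1.86, adjusted p = 0.519), and it passed in 1 of the 6 fits that each left out an array, the one without MR 4-25 replicate 3 (adjusted p from 0.0108 to 0.178). The 6 myeloid markers were also well above background on every array, but at summed levels of 1.73 to 1.95 in MR 4-25 and 0.939 to 1.41 in Neo. Of 5 fibroblast markers 3 were well above background on all 6 arrays, as was 1 of 4 erythroid markers. The part of these marker levels in the results below was not tested.

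The probes of Lrrc8c and Lrrc8e shown next are the most alike in sequence of all pairs among the 11, and they are the LRRC8 probes of largest difference between lines among those well above background on all 6 arrays. They are printed because paralogous genes can share signal where their probes are alike. Capitals mark bases that are the same in both when the probes are laid side by side without gaps, which was 36 of 56 aligned bases.
Lrrc8c, chr5:104785487-104785546 of build mm7, listed there from low to high coordinate, 5′ to 3′: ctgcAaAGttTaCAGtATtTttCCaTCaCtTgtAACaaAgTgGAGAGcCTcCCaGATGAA
Lrrc8e, chr8:4200138-4200197 of build mm7, listed there from low to high coordinate, 5′ to 3′: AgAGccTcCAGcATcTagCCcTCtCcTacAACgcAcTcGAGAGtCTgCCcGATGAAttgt
The next pair by number of identical bases, the probes of Lrrc8c and Slc12a2, shared 26 of 59 aligned bases, and the next by share of the aligned bases, those of Slc12a4 and Slc12a7, shared 20 of 39.

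None of the 8 members passed the test of MR 4-25 against Neo. With limma and Benjamini-Hochberg adjustment over all 21341 genes, 0 were higher and 0 lower at an adjusted p of 0.05, and 0 had an unadjusted p under 0.05. Over all genes 263 passed, a background of 1.23%, and 13.3% had an unadjusted p under 0.05. So 8 genes are too few for the lack of calls to set them apart. This fit had no block for replicate number, and with that block 1 of all genes and 0 of the members passed. The log2 differences, MR 4-25 minus Neo, were above 0 for 4 members and below 0 for 4. They ranged from −0.43 for Lrrc8e to 0.82 for Slc12a2. Their median was 0.00, beside 0.01 over all genes tested, and the median of their sizes without sign was 0.22, beside 0.37 over all genes. With each probe taken on its own, 0 of 11 passed among 30965 probes tested, where the background was 1.3%, and 0 of 11 had an unadjusted p under 0.05, where the background was 14.2%.

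**Figure D1:**
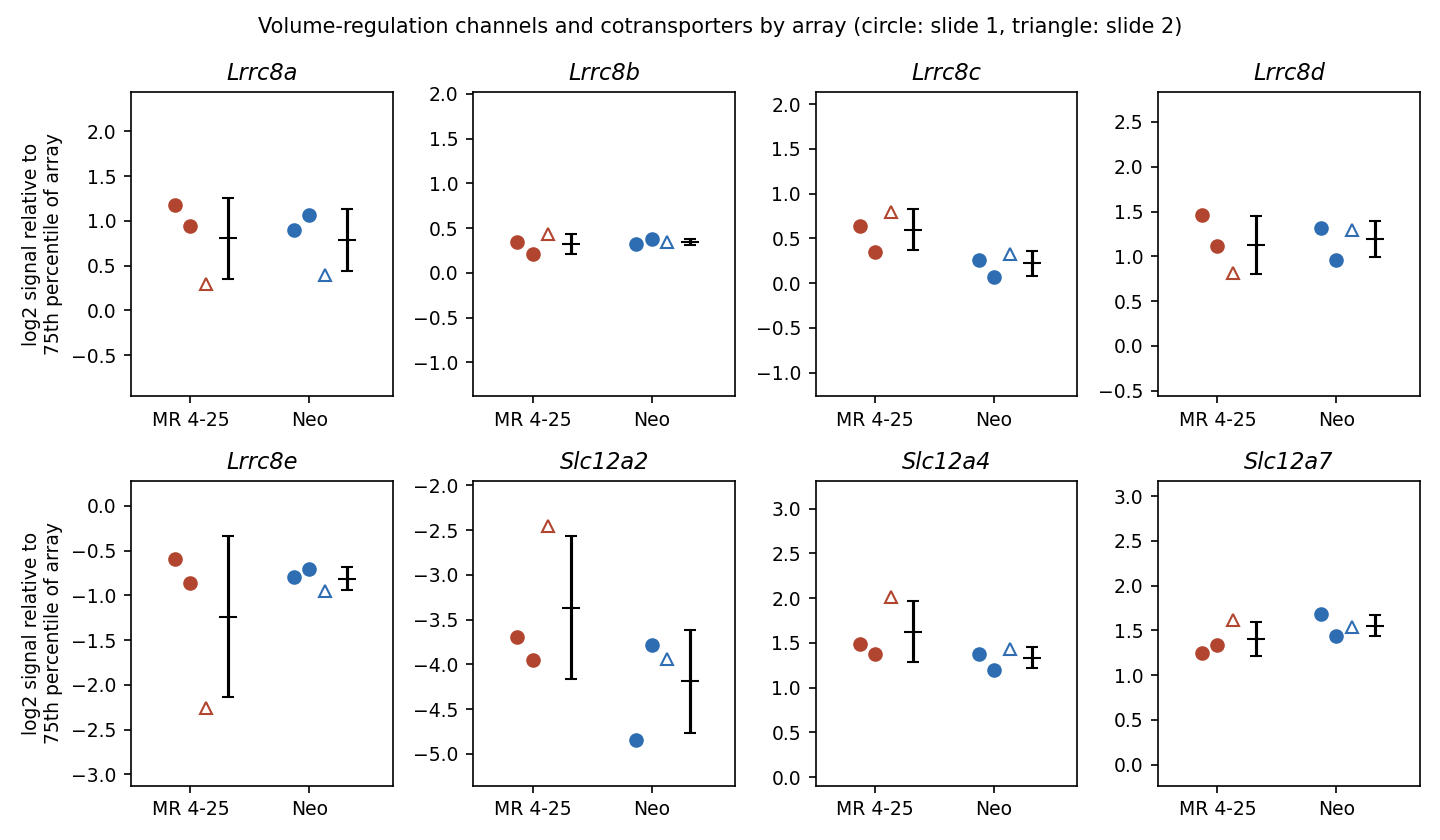
Log2 signal of each member's brightest probe relative to the array's 75th percentile (vertical axes of equal span), with MR 4-25 on the left and Neo on the right of each panel; circles are arrays of slide 1, triangles arrays of slide 2, and the black bar is the mean with its SD (n = 3). The lines overlap in every panel except that of Lrrc8c, where the MR 4-25 arrays lie at 0.35 to 0.80 and the Neo arrays at 0.07 to 0.33.

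Lrrc8a, the subunit that every such channel needs, was well above background on all 6 arrays with its probe on chromosome 2 from 30270878 to 30270937 (build mm7). Its processed signal was 1973.0, 1751.2 and 643.2 intensity units in MR 4-25 1 to 3, against 1843.5, 1767.7 and 1211.6 in Neo 1 to 3. In both lines the array of slide 2 was the low one. Relative to the array's 75th percentile the log2 level averaged 0.81 ± 0.45 in MR 4-25 and 0.79 ± 0.35 in Neo (mean ± SD, n = 3 each). The difference was 0.02 ± 0.31 (SE, limma adjusted p = 0.985), and the 95% interval ran from −0.77 to 0.81, which is 0.586-fold to 1.75-fold. The step between slides was larger than the difference between lines, with slide 2 minus slide 1 at −0.76 in MR 4-25 and −0.58 in Neo. Of all genes 97.2% had a larger difference between lines than Lrrc8a.

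Lrrc8b, Lrrc8c and Lrrc8d, which encode partner subunits, lie close together on chromosome 5, where they are protein-coding genes 1, 2 and 4 counted from Lrrc8b in the RefSeq table of assembly GRCm38.p6. Lrrc8b had a probe at 104664222 to 104664281, matched through the symbol in the array's annotation, and another at 104663055 to 104663114, matched through its transcript. The first gave 1104.8, 1051.7 and 699.6 intensity units in MR 4-25, against 1234.5, 1101.0 and 1164.5 in Neo. Relative to each array's 75th percentile the 6 arrays lay within a narrow band, with 0.32 ± 0.11 in MR 4-25 and 0.35 ± 0.03 in Neo (mean ± SD, n = 3 each). The difference was −0.03 ± 0.14 (SE, adjusted p = 0.960), and its 95% interval of 0.766-fold to 1.26-fold was the narrowest of the 8 genes. The other Lrrc8b probe gave 223.5, 225.9 and 133.9 intensity units in MR 4-25, against 217.6, 209.6 and 260.2 in Neo, and a difference of 0.02 ± 0.16 (SE, limma adjusted p = 0.960 over all probes). The log2 intervals of the brighter and dimmer probe, −0.38 to 0.33 and −0.37 to 0.42, both include 0.

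Lrrc8c, whose product in human and mouse lymphocytes is a partner of LRRC8A in the anion channel, was the member whose lines did not overlap. Its signal was 1362.3, 1158.9 and 907.4 intensity units in MR 4-25, against 1183.7, 883.8 and 1155.8 in Neo. On this unscaled signal the lines overlap. Relative to each array's 75th percentile the log2 levels were 0.64, 0.35 and 0.80 in MR 4-25, against 0.26, 0.07 and 0.33 in Neo, so the lowest MR 4-25 array stood just above the highest Neo array. The difference was 0.38 ± 0.19 (SE, n = 3 per line), or 1.30-fold with a 95% interval of 0.936-fold to 1.80-fold, and it did not pass (limma adjusted p = 0.488). It was 0.33 on slide 1 and 0.47 on slide 2. Lines that do not overlap with MR 4-25 higher were found for 1 of 8 members and for 11.2% of all genes, and in either direction for 24.3% of all genes, so this is near the background. Of all genes 49.6% had a larger difference than Lrrc8c.

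Lrrc8d, the subunit known for the passage of taurine and other uncharged osmolytes, gave 2397.4, 1967.1 and 913.4 intensity units in MR 4-25, against 2463.8, 1643.6 and 2243.5 in Neo. Its log2 level relative to the 75th percentile was 1.13 ± 0.32 in MR 4-25 and 1.19 ± 0.20 in Neo (mean ± SD, n = 3 each). The lines overlapped, and MR 4-25 held both the highest and the lowest of the 6 arrays. The difference of −0.06 ± 0.23 (SE, limma adjusted p = 0.937) had a 95% interval of 0.639-fold to 1.43-fold, and it was 0.14 on slide 1 and −0.48 on slide 2. The 3 neighbours on chromosome 5 thus had differences of −0.03, 0.38 and −0.06, each with an interval that includes 0.

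Lrrc8e, a further partner subunit, was read by 3 probes that did not give a single picture. The brightest, whose sequence is printed above, gave 577.5, 502.0 and 108.4 intensity units in MR 4-25, against 570.5, 521.5 and 474.2 in Neo. MR 4-25 3 was low and the other 5 arrays lay together. The difference of −0.43 ± 0.47 (SE, limma adjusted p = 0.762) was 0.02 on slide 1, −1.31 on slide 2 and 0.09 without MR 4-25 replicate 3. The second probe, at 4200739 to 4200798 on chromosome 8, gave 71.5, 64.2 and 4.2 in MR 4-25, against 3.5, 81.7 and 61.8 in Neo. It was well above background on 2 of 3 arrays of each line, and on the remaining array of each, MR 4-25 3 and Neo 1, the scanner software had put a surrogate value in place of the signal. The third probe spans 4716 bases of the genome with its 60 bases, from 4191253 to 4195968, so it lies across an exon junction. It gave 18.4, 9.9 and 71.7 in MR 4-25, against 6.9, 55.4 and 50.5 in Neo, and it too was well above background on 2 of 3 arrays of each line. In MR 4-25 3 the first probe was at its lowest of the 6 arrays and the second at a surrogate value, while the third was at its highest. The dim probes differed by 0.33 ± 1.60 and 0.11 ± 1.31 (SE, limma adjusted p = 0.947 and 0.978 over all probes), with 95% intervals on the log2 scale of −3.71 to 4.36 and −3.18 to 3.40, so they set hardly any limit on a change.

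**Figure D2:**
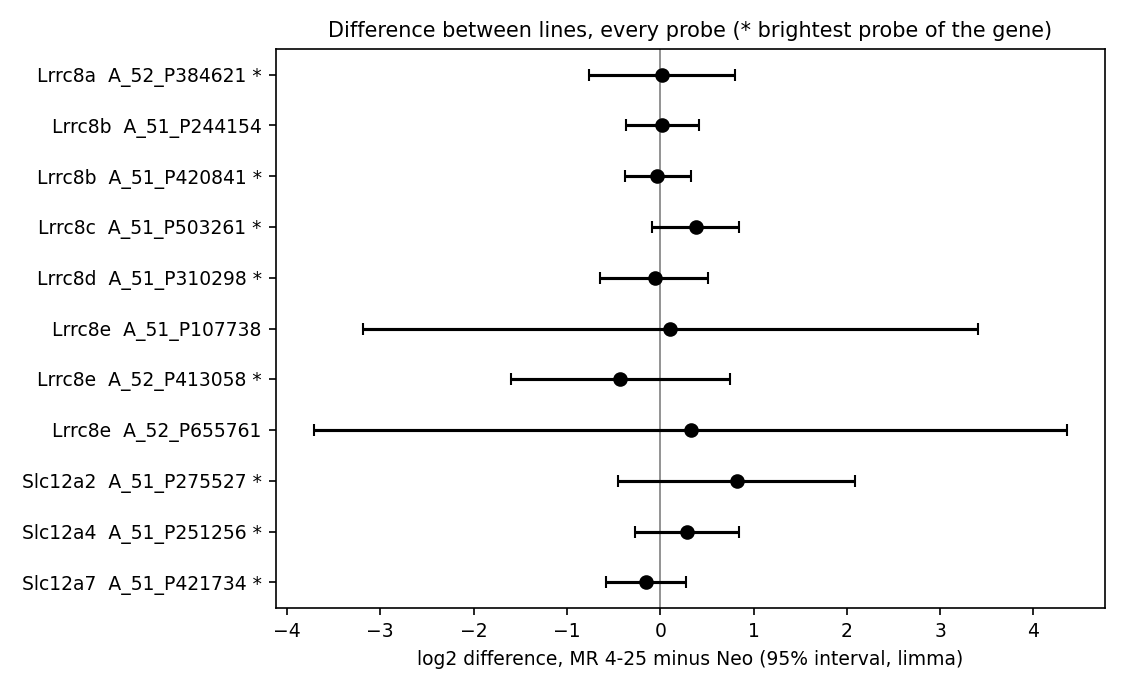
Log2 difference between lines, MR 4-25 minus Neo, for each of the 11 probes, with the 95% interval of the limma fit over all probes; an asterisk marks the brightest probe of a gene. Every interval includes 0, and those of the dim Lrrc8e probes are the widest, from −3.71 to 4.36 and from −3.18 to 3.40.

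Slc12a2, the inward cotransporter NKCC1, had the largest difference among the members, and its probe was well above background on all 6 arrays at a low signal. Its signal was 67.7, 58.9 and 94.8 intensity units in MR 4-25, against 34.3, 61.6 and 59.7 in Neo. MR 4-25 3 was the highest array and Neo 1 the lowest, and between them the lines overlapped. The log2 level relative to the 75th percentile averaged −3.37 ± 0.80 in MR 4-25 and −4.19 ± 0.58 in Neo (mean ± SD, n = 3 each). The difference was 0.82 ± 0.51 (SE), or 1.77-fold with a 95% interval of 0.727-fold to 4.30-fold, and it did not pass (limma adjusted p = 0.591). It was 0.49 on slide 1 and 1.48 on slide 2, and it was 0.37 without MR 4-25 replicate 3. Its probe lies on chromosome 18 from 58325331 to 58325390, and 16.1% of all genes had a larger difference.

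Slc12a4, the outward cotransporter KCC1, was read by a probe on chromosome 8 from 104542638 to 104542697. It gave 2443.0, 2353.8 and 2095.9 intensity units in MR 4-25, against 2545.5, 1941.1 and 2474.6 in Neo. Relative to the 75th percentile the log2 levels were 1.49, 1.37 and 2.01 in MR 4-25, against 1.37, 1.20 and 1.43 in Neo, so MR 4-25 3 stood above the other 5 arrays and the rest overlapped. The difference was 0.29 ± 0.22 (SE, limma adjusted p = 0.676), or 1.22-fold with a 95% interval of 0.828-fold to 1.80-fold. It was 0.14 on slide 1, 0.58 on slide 2 and 0.09 without MR 4-25 replicate 3.

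Slc12a7, the outward cotransporter KCC4, was read by a probe on chromosome 13 from 70749139 to 70749198. Its signal was 2069.0, 2311.7 and 1602.0 intensity units in MR 4-25, against 3173.4, 2291.0 and 2660.8 in Neo. Relative to the 75th percentile it averaged 1.40 ± 0.19 in MR 4-25 and 1.55 ± 0.12 in Neo (mean ± SD, n = 3 each), with overlap between the lines. The difference of −0.15 ± 0.17 (SE, limma adjusted p = 0.776) had a 95% interval of 0.665-fold to 1.22-fold, and it was −0.27 on slide 1 and 0.08 on slide 2. The inward cotransporter and the KCC1 gene therefore had differences above 0 and the KCC4 gene below 0, and none of the 3 passed. In bulk samples such as these, fewer cells that express a gene and less RNA per cell cannot be told apart.

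**Figure D3:**
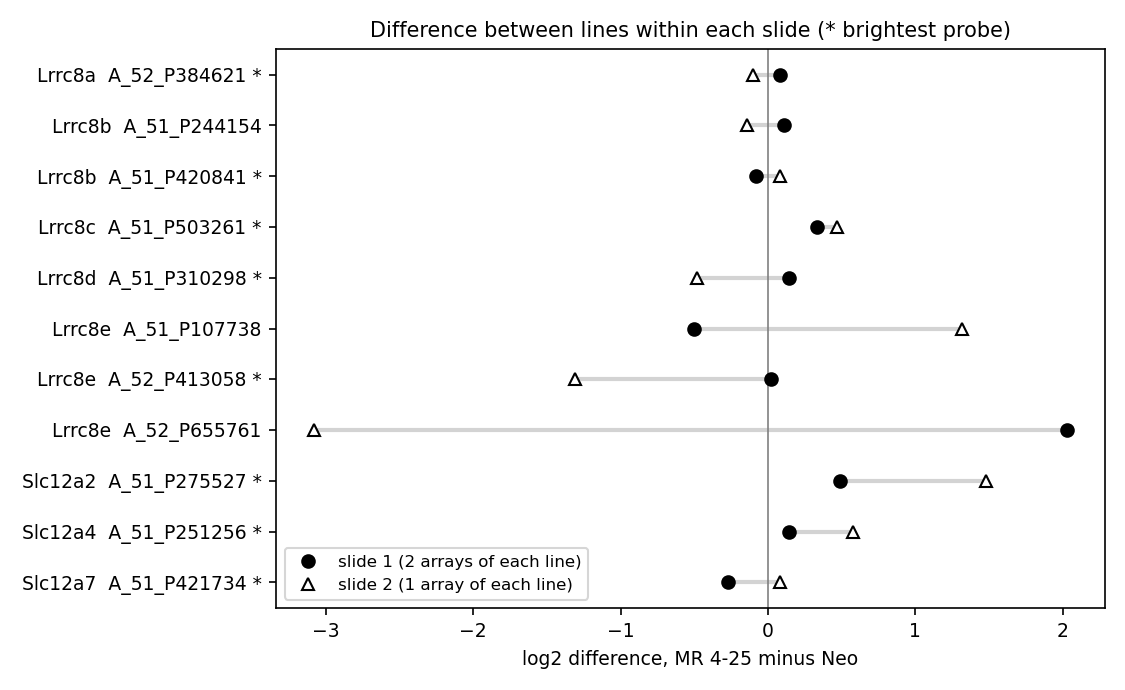
Log2 difference between lines, MR 4-25 minus Neo, computed within slide 1 (filled circles, 2 arrays of each line) and within slide 2 (open triangles, 1 array of each line) for each of the 11 probes. Lrrc8c, Slc12a2 and Slc12a4 are above 0 on both slides, while the brightest Lrrc8e probe is at 0.02 on slide 1 and −1.31 on slide 2.

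The array of MR 4-25 replicate 3 moved with several of these values. It was the highest or the lowest of the 6 arrays for 7 of 8 members, being lowest for Lrrc8a, Lrrc8d and Lrrc8e and highest for Lrrc8b, Lrrc8c, Slc12a2 and Slc12a4. Over all genes it was the highest or lowest array for 60.3%, against 21.8% to 35.1% for each of the other 5 arrays. Without it the differences were 0.27 for Lrrc8a, −0.08 for Lrrc8b, 0.27 for Lrrc8c, 0.09 for Lrrc8d and −0.26 for Slc12a7, and 0 of 8 members passed. The part of its lower brightness in these values was not tested.

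**Figure D4:**
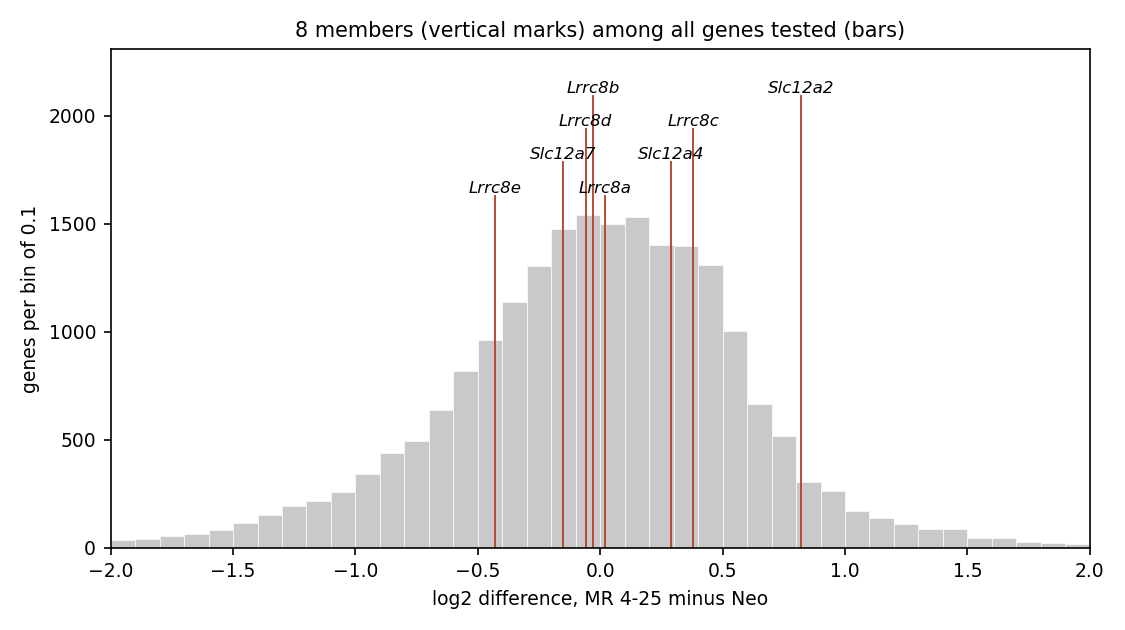
Number of genes in each bin of the log2 difference between lines, MR 4-25 minus Neo (grey bars, 21025 genes with a difference smaller than 2 in size; 316 lie beyond), with a vertical mark for each of the 8 members. The members stand between −0.43 and 0.82, in the range where most genes lie.

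The kinases that switch these cotransporters by phosphorylation, with their scaffold and the ligase that degrades them, gave no call either. WNK kinases activate SPAK (Stk39) and OSR1 (Oxsr1), which turn NKCC1 on and the KCCs off. Of 11 listed genes 9 were tested and 0 passed as higher or lower, where 1.23% of all genes passed. Of the 9, 0 had an unadjusted p under 0.05, where 13.3% of all genes did. They are too few for the lack of calls to set them apart. The median difference was −0.09. Wnk3 and Klhl3 were not well above background on enough arrays. Of the genes that stood well above background on all 6 arrays, those of largest difference were Wnk2 and Cab39l, a scaffold of these kinases. They differed by −0.25 ± 0.75 and −0.19 ± 0.21 (SE, limma adjusted p = 0.925 and 0.765). Wnk2 was dim, at 22.2 to 72.5 intensity units. Dimmer Cab39l probes differed by −0.13 ± 0.16 and −0.63 ± 0.67 (SE), the latter by −1.23 on slide 1 and 0.59 on slide 2. Named after its values were seen, Stk39 had 178.8, 156.6 and 40.4 intensity units in MR 4-25, against 79.0, 70.1 and 8.4 in Neo. On each slide the MR 4-25 arrays were the higher ones, by 1.20 on the log2 scale on slide 1. On slide 2, with 1 array of each line, the observed signals differed by 3.08. Neo 3 was not well above background there, so this size is uncertain. Over all arrays the lines overlapped, as MR 4-25 3 was below Neo 1 and Neo 2. The difference over all arrays, with the dim signal of Neo 3 included, was 1.83 ± 0.99 (SE, limma adjusted p = 0.535).

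Of the 6 remaining genes of the Slc12 family 5 were tested and 0 passed as higher or lower, where 1.23% of all genes passed. Of the 5, 0 had an unadjusted p under 0.05, where 13.3% of all genes did. These genes too are too few for the lack of calls to set them apart. Slc12a8 was not kept. The median difference of the 5 genes was 0.40. Slc12a3, the thiazide-sensitive sodium chloride cotransporter of kidney, differed by 0.48 ± 0.67, and Slc12a5, the neuronal potassium chloride cotransporter KCC2, by −0.73 ± 0.60 (SE, limma adjusted p = 0.822 and 0.695). Slc12a5 was −0.09 on slide 1 and −2.01 on slide 2.

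Among 21 other genes of volume regulation, which took in further anion channels, potassium and cation channels, exchangers and the sodium pump, 20 were tested, 0 passed as higher and 1, Kcna3, passed as lower, where a decrease passed for 0.558% of all genes. Kcna3 had met the filter on dim probes only through its 3 Neo arrays, so the filter had selected for the difference, and without the filter it did not pass (adjusted p = 0.0696). Piezo1 was matched to no probe. The median difference was −0.19, beside 0.01 over all genes. Of the 20 genes 14 lay below 0, as did 10547 of all 21341 genes. An unadjusted limma p under 0.05 was found for 3 of the 20 and for 13.3% of all genes. Kcna3, the voltage-gated potassium channel of T cells, gave 10.6, 3.9 and 4.2 intensity units in MR 4-25, none of them well above background, against 49.7, 52.6 and 64.6 in Neo. With a floor in place of its MR 4-25 signals, Kcna3 was 4.11-fold lower in MR 4-25. The floor was, for each MR 4-25 array, the dimmest signal flagged well above background there, or the probe's own signal if that is brighter. The 4.11-fold is not a lower limit on the decrease, because it leaves out the spread between arrays and the choice of background correction. In MR 4-25 2 and MR 4-25 3 the listed values are surrogates that the scanner software had put in place of the signal. On the values as listed, these surrogates included, the limma adjusted p was 0.0499. The 95% interval of that fit ran from 0.0592-fold to 0.257-fold. The call lay at the threshold: with the replicate number as a block the adjusted p was 0.170, with slide as a block 0.0619, and without any 1 of the 6 arrays 0.0883 to 0.244. The size depended on the background correction: the log2 difference of −3.02 as reported was 0.16 with normexp (adjusted p = 0.889) and −0.67 with normexp and quantile normalization (adjusted p = 0.0523). Kcnn4, the calcium-activated potassium channel of lymphocytes, gave 6533.4, 5506.2 and 3922.5 intensity units in MR 4-25, against 11371.2, 9077.4 and 11659.5 in Neo. Every MR 4-25 array was below every Neo array, and the difference was −0.74 ± 0.17 (SE), −0.73 on slide 1 and −0.76 on slide 2, but it did not pass over all genes (limma adjusted p = 0.159). Of the 18 alternatives it passed under 2, the intensity trend with robust fit (adjusted p = 0.0397) and array quality weights (adjusted p = 0.0166). Under these settings 718 and 2018 of all 21341 genes passed, against 263 as reported. Ttyh2, of a family proposed to form volume-sensitive anion channels, differed by 0.81 ± 0.50 (SE, limma adjusted p = 0.588). It was dim, at 13.7 to 43.5 intensity units, and differed by 0.15 on slide 1 and 2.13 on slide 2. Lines that do not overlap with MR 4-25 lower were found for 5 of the 20 genes and for 13.1% of all genes. Besides Kcna3 and Kcnn4 these were Clns1a, Slco2a1 and Slc4a2, named after their values were seen, with differences of −0.50, −0.61 and −0.11.

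The genes most like Lrrc8a across the 6 arrays were Amacr, Ldhal6b and Rilp. Likeness was the root mean square difference between log2 profiles, each centred on its own mean, and it was 0.032, 0.074 and 0.078 among 12624 genes, where the Lrrc8a profile itself had an SD of 0.329 around its mean. Those most like Slc12a2 were Ndor1, Slc43a3 and Dbh, at 0.12, 0.153 and 0.155, where the profile of Slc12a2 had an SD of 0.701. These 6 genes had differences between lines of 0.01 to 0.91, and none passed the test. That was largely set by the choice, because a profile close to a member's over the same arrays has nearly the member's difference. How close the nearest of so many genes come by chance was not tested. All profiles share the same 6 arrays and their scaling.

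**Figure D5:**
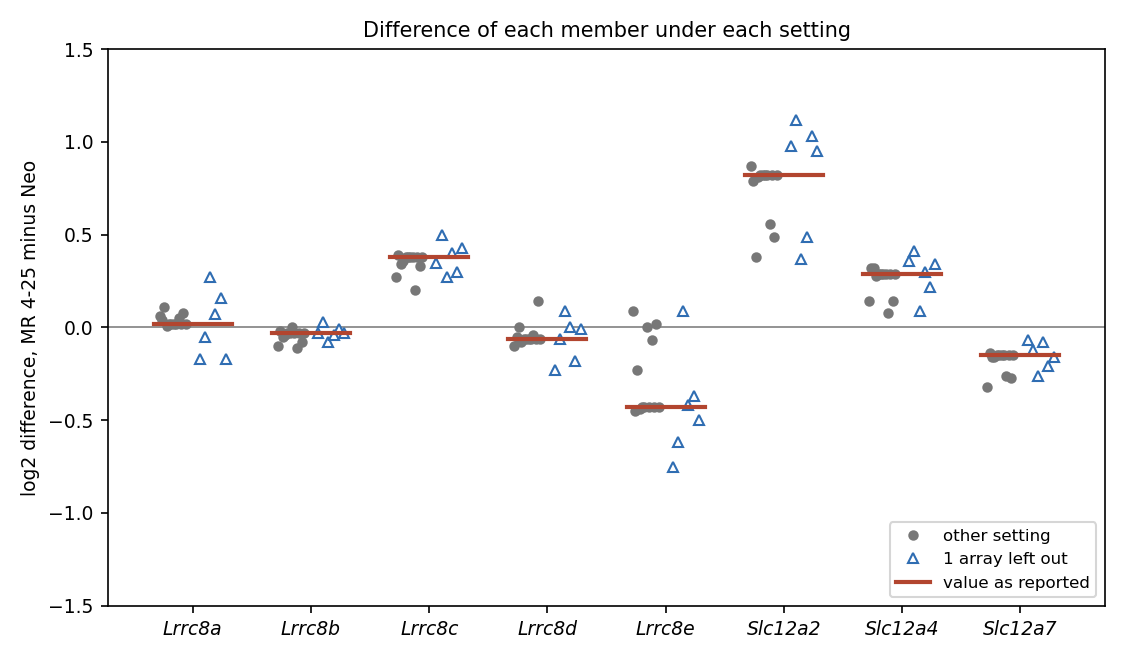
Log2 difference of each member between lines, MR 4-25 minus Neo, as reported (red line), under 12 other settings of the processing (grey circles) and with 1 array left out in turn (open triangles). Lrrc8c, Slc12a2 and Slc12a4 stay above 0 and Slc12a7 below 0 under all of these, at 0.20 to 0.50, 0.37 to 1.12, 0.08 to 0.41 and −0.32 to −0.07, while Lrrc8a, Lrrc8b, Lrrc8d and Lrrc8e fall on both sides of 0.

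No member passed under any of the 18 alternatives, and the lowest adjusted p reached by a member was 0.218, for Slc12a7 with array quality weights. With normexp background correction the median of all genes moved to 0.34. Relative to it Slc12a2 was at 0.53, Lrrc8c at −0.07, Slc12a4 at −0.20 and Slc12a7 at −0.66, so the direction of Lrrc8c and Slc12a4 relative to the other genes turned under that setting.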

How the data were processed

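The authors deposited the scanner output of each array, whose processed Cy3 intensity is background-subtracted and detrended by Agilent Feature Extraction (version 9.5.3.1 in the file headers, 9.5 in the submitters' processing notes). A value table deposited for the series equals this processed intensity on every array, so it gave no separate alternative; flags per spot were taken as they stand. The 1639 control spots of each array were left out, spots with an outlier flag masked, a probe's spots averaged on the log2 scale, and each array scaled by subtracting the log2 of its 75th percentile, taken over 43379 gene spots; 34 probes masked on an array were dropped. A probe was kept if 3 or more of the 6 arrays showed it well above background (30965 probes), and the brightest stood for a gene. Names came from the RefSeq table by accession for 22951 probes, the symbol in the file for 6659 and a synonym for 3109; 8455 kept a name that is not current. No member probe was saturated. Probe positions are the array annotation's, on build mm7, and no genome was used.

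The difference MR 4-25 minus Neo was fitted by limma's lmFit and eBayes (limma 3.58.1 in R 4.3.3, with jsonlite 2.0.0), and p-values were adjusted by Benjamini-Hochberg over all genes, or over all probes where stated. The fit was tested on simulated data. Figures were drawn with Python 3.11.15 and matplotlib 3.10.9. Across genes, arrays with the same replicate number deviated together from the mean of their line. The correlations were 0.291, 0.214 and 0.557, above the 0.1 set for treating the labels' replicate numbers as pairs. The fit as reported nevertheless had no block for these pairs, and its p-values and backgrounds are unpaired unless a block is stated. With the replicate number as a block 1 of all genes passed, against 263 without it. Replicate 3 was alone on slide 2 in each line, and its array is part of the line mean from which every deviation was taken. Pairing and slide therefore cannot be told apart in any of these correlations. The number of arrays limits the precision.

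The members and lists were chosen with earlier results of these data known. A further list of markers is not reported here. The text names every member, each list gene that passed, and the 2 genes of largest difference in each list among those well above background on all 6 arrays, besides those said to be named after their values were seen, and 3 genes most like each of Lrrc8a and Slc12a2. Alternatives changed the background correction, normalization, scaling, filter, probe summary, variance model, array weights, slide or replicate block, or left out slide 2 or each array.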

Additional observations from a re-analysis of the deposited data

How the results depend on the processing

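For the members, 0 genes and 0 probes passed under every alternative that was run. The median of their differences was −0.05 to 0.09 with 1 array left out. The WNK kinase and other Slc12 lists also gave 0 calls throughout. The 1 call in the list of other volume regulation genes became 0 with normexp background correction, normexp with quantile, no filter, the filter requiring all 6 arrays, averaging a gene's probes, the slide block, slide 1 alone, the replicate block, and without any 1 array (0 to 0). With the intensity trend and robust fit there was 1 call, but it was Kcnn4 (adjusted p = 0.0397) and not Kcna3 (adjusted p = 0.0551). With array quality weights there were 3, Clns1a, Kcna3 and Kcnn4. Kcna3 was 0.16 with normexp and −0.67 (adjusted p = 0.0523) with normexp and quantile. The cause was not tested. Over all genes 263 were called as reported, 1 with the replicate block, 77 with normexp, 512 with normexp and quantile, 718 with an intensity trend and robust fit, 2018 with array quality weights, and 0 without Neo replicate 1 or Neo replicate 2, so the background moves with the setting. Of the calls the text names, the replicate block ended those of Kcna3 and Cd247, and it added none among the members and lists.

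The following differences, none of which passed as reported, changed direction or came to 0.00 after rounding. With normexp Lrrc8e was 0.09 (gene and brightest probe), Wnk2 0.44 and Slc12a5 0.23. With quantile normalization the dimmer Lrrc8b probe was 0.00, and with normexp and quantile Lrrc8d was 0.00. With the mean over probes Lrrc8b and Lrrc8e were each 0.00. With array quality weights Ttyh2 was −0.08 and the junction probe of Lrrc8e −0.41. On slide 1 alone Lrrc8d was 0.14, Lrrc8e 0.02 and its junction probe −0.50. With 1 array left out, the ranges that crossed 0 were −0.17 to 0.27 for Lrrc8a, −0.08 to 0.03 for Lrrc8b (−0.06 to 0.12 for its dimmer probe), −0.23 to 0.09 for Lrrc8d, −0.75 to 0.09 for Lrrc8e (−0.95 to 0.88 and −1.17 to 1.41 for its dim probes), −0.93 to 0.16 for Wnk2 and −0.18 to 0.86 for Slc12a3. Signal relative to the 75th percentile was lowest, among the 11 probes, in the dim Lrrc8e probes, each of which was well above background on 2 of 3 arrays per line.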
